A study of Homo sapiens with 12 samples.

Results

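This report describes how untreated human liver spheroid co-cultures changed between 24 h and 144 h of the experiment, that is from day 4 to day 9 of culture. The members are set by their labels. They are the 3 untreated libraries at 24 h and the 3 at 144 h, 6 of the 12 libraries of the study. This comparison and the gene lists were chosen with earlier results of these data known. All 16705 genes of the table were considered and 11713 were tested.

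The study exposed spheroids to TPN, a parenteral nutrition mixture, at 1% and kept untreated spheroids beside them, with 3 libraries for each combination of treatment and time. Spheroids were seeded with 500 C3A cells, which are hepatocyte-like and were cloned from the hepatoma line HepG2, and 50 LX-2 cells, an immortalised hepatic stellate cell line, in each well. Exposure began on day 3, and each library was made from a pool of about 65 spheroids. Both untreated groups received the same serum-containing culture medium without TPN. Each cell type is a single established line, so the libraries carry no donor variation, and the cultures held no endothelial cells, macrophages or bile duct cells by design.

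A spheroid is a dense ball of cells without blood vessels, so oxygen and nutrients reach its core by diffusion alone. Cells short of oxygen stabilise the transcription factor HIF, which binds sequences with the core ACGTG and switches on genes for glucose uptake, glycolysis, vessel growth and matrix modification. Hepatocyte-like cells secrete plasma proteins and handle glucose, lipids, iron and amino acids, while stellate cells make collagens and the contractile and cytoskeletal proteins of mesenchymal cells.

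Expression was given as FPKM, a fragment count divided by transcript length and by the mapped fragments of the library. Differences are log2 fold changes of FPKM + 0.1, 144 h minus 24 h, from a limma model, given with their standard error (SE). Folds are ratios of mean FPKM. A gene was called a differentially expressed gene (DEG) when its Benjamini-Hochberg adjusted p value from limma was below 0.05 and its absolute log2 fold change exceeded 0.58. Rose and fell are used of DEGs alone.

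The FPKM of the untreated libraries summed to 561657 to 578655, and the libraries correlated across genes at r = 0.993 to 0.996 within a time and at 0.964 to 0.968 between times. The first principal component of these 6 libraries held 82.8% of their variance and separated the times. The steps of low FPKM values gave an estimated depth of 1.94e+07 fragments per library (confidence interval of the slope 1.83e+07 to 2.04e+07), with relative depths of 0.986 to 1.026. On a transcript of 2000 bases the pseudocount of 0.1 FPKM was worth 3.35 fragments and the filter of 0.5 FPKM was worth 16.8, so the changes of genes near the filter rested on few fragments.

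The markers expected of C3A cells were present. Serum albumin (ALB) read 4460, 4526 and 4191 FPKM at 24 h and 6391, 5709 and 6031 FPKM at 144 h, and the 12 hepatocyte markers summed to 16939 to 17401 FPKM at 24 h and 20598 to 21879 FPKM at 144 h. Of 16 stellate cell markers 7 passed the filter, with sums over all 16 of 122 to 125 FPKM at 24 h and 73.4 to 80.8 FPKM at 144 h. The defining stellate genes DCN and LRAT were listed at 0 in all 6 libraries, DES reached at most 0.08 FPKM and PDGFRA at most 0.08 FPKM, whereas the platelet-derived growth factor receptor PDGFRB read 3.03, 3.13 and 3.13 FPKM at 24 h and 3.03, 3.14 and 3.07 FPKM at 144 h. None of 10 endothelial markers passed the filter, and together they summed to 0.27 to 0.29 FPKM at 24 h and 0.40 to 0.51 FPKM at 144 h. Of 10 macrophage and leukocyte markers 4 passed the filter and 0 were DEGs, and PTPRC, the pan-leukocyte antigen CD45, reached at most 0.05 FPKM. Of 8 bile duct markers 4 passed the filter, and 1 rose and 0 fell (6.80% and 12.2% of all genes). Their sum was 337 to 355 FPKM at 24 h and 307 to 319 FPKM at 144 h, so part of this list was expressed. KRT7 reached at most 0.09 FPKM.

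Between 24 h and 144 h, 2230 of 11713 genes (19.0%) were DEGs in untreated spheroids, 796 higher at 144 h (6.80%) and 1434 lower (12.2%). The adjusted p value alone was below 0.05 in 8498 genes (72.6%), 2360 higher and 6138 lower, and in 8774 genes (74.9%) the 3 libraries at one time all lay on the same side of the 3 at the other. Over all genes tested the median log2 fold change was −0.18, with quartiles of −0.41 and 0.09, and the median SE was 0.06. Levels are relative to each library's total, and when libraries were instead scaled by the median ratio this median was −0.01 and there were 1869 DEGs, 1230 higher (10.5%) and 639 lower (5.46%). All 796 higher DEGs and 639 of the lower DEGs were called under both scalings. Median ratio scaling raised the changes of genes by a similar amount, so higher DEGs could hardly lose their call by it. Lower DEGs thus outnumbered higher ones in FPKM as deposited and not under median ratio scaling. An absolute log2 fold change above 1 was passed by 626 genes (5.34%). Of the DEGs, 82 were at least 4-fold higher and 46 at least 4-fold lower by the modelled change of FPKM + 0.1, not by mean FPKM.

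The genes named as changing most were chosen among DEGs whose groups did not overlap, with a mean of at least 1 FPKM in the higher group. The 15 that rose most came from low levels, between 0 and 2.79 FPKM in the mean at 24 h. IGFBP3, a plasma carrier of insulin-like growth factors, rose most, from 0.36, 0.48 and 0.28 FPKM at 24 h to 14.2, 14.8 and 14.8 FPKM at 144 h, a 39.2-fold difference (log2 fold change 4.98 ± 0.13 (SE), adjusted p = 2.59e-12). The small proline-rich protein gene SPRR2D was listed at 0 in all 3 libraries at 24 h and read 2.57, 1.69 and 2.31 FPKM at 144 h. IL11, a cytokine of the interleukin-6 family, read 0.08, 0.14 and 0.31 FPKM at 24 h and 3.66, 3.48 and 4.17 FPKM at 144 h (log2 fold change 3.89 ± 0.22 (SE), adjusted p = 2.93e-09). In all 3 genes every library at 144 h lay above every library at 24 h, which the choice of genes required.

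The stress-induced transcription factor ATF3 rose from 2.85, 2.82 and 2.7 FPKM at 24 h to 39.8, 37.97 and 42.3 FPKM at 144 h, 14.3-fold (log2 fold change 3.79 ± 0.08 (SE), adjusted p = 5.93e-13). TNS1, a tensin that links integrins to actin, rose from 2.63, 2.68 and 2.31 FPKM at 24 h to 29.7, 30.4 and 30.5 FPKM at 144 h (log2 fold change 3.52 ± 0.07 (SE), adjusted p = 4.61e-13). OSCAR, a receptor for collagen, read 0.41, 0.64 and 0.47 FPKM at 24 h and 7.64, 9.14 and 8.81 FPKM at 144 h (log2 fold change 3.84 ± 0.17). These genes had tight replicates, and the gap between the times was many times the spread within either.

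The rest of the 15 were BIRC7, an inhibitor of apoptosis (log2 fold change 3.60), the T-box factor TBX15 (3.59), ANGPTL4 and EGLN3, described with the hypoxia-responsive genes, the potassium channel subunit KCNMB3 (3.34), the sodium chloride cotransporter SLC12A3 (3.18), the membrane repair protein DYSF (3.15), the trefoil peptide TFF1 and the secreted protein MSMB. TFF1 and MSMB were each listed at 0 in 2 of 3 libraries at 24 h, so no fold is given for them. TFF1 read 0, 0.24 and 0 FPKM at 24 h and 1.43, 3.75 and 3.02 FPKM at 144 h. MSMB read 0.25, 0 and 0 FPKM at 24 h and 0.94, 0.88 and 1.92 FPKM at 144 h.

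The 15 genes that fell most had mean levels of 1.26 to 26.7 FPKM at 24 h and of 0.09 to 3.18 FPKM at 144 h. TMSB4X, encoding the actin-binding peptide thymosin beta-4, fell from 27.9, 26.3 and 25.9 FPKM at 24 h to 3.73, 2.85 and 2.96 FPKM at 144 h (log2 fold change −3.04 ± 0.14 (SE), adjusted p = 3.49e-10). LDHB, the heart-type lactate dehydrogenase subunit, fell from 5, 5.32 and 5.17 FPKM at 24 h to 0.3, 0.67 and 0.61 FPKM at 144 h (log2 fold change −3.13 ± 0.23 (SE), adjusted p = 3.47e-08). GSTP1, a glutathione transferase, fell from 9.9, 10.8 and 13.3 FPKM at 24 h to 1.33, 1.47 and 1.22 FPKM at 144 h (log2 fold change −2.98 ± 0.18 (SE), adjusted p = 5.55e-09). The highest library at 144 h lay below the lowest at 24 h in each of these genes, which the choice of genes required.

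CAV1, the scaffold of caveolae, fell from 3.61, 4.06 and 3.72 FPKM at 24 h to 0.46, 0.26 and 0.4 FPKM at 144 h (log2 fold change −3.06 ± 0.17 (SE), adjusted p = 2.71e-09). MSN, the membrane-to-actin linker moesin, fell from 4.7, 4.42 and 4.01 FPKM at 24 h to 0.47, 0.51 and 0.61 FPKM at 144 h (log2 fold change −2.83 ± 0.11 (SE), adjusted p = 1.09e-10). The other genes of the 15 included COL1A1, described below, the secreted glycoproteins FSTL1 (log2 fold change −2.93) and DKK3 (−2.73), the deubiquitinase UCHL1 (−2.85), the collagen IV cross-linking enzyme PXDN (−2.79), the phospholipid-binding protein ANXA1 (−2.78), BASP1 (−2.74), the tetraspanin CD81 (−2.67) and EMC10, a subunit of an endoplasmic reticulum insertase (−2.76). ATF7-NPFF (−2.94, adjusted p = 0.01) is a readthrough gene that shares sequence with its neighbours, and its value is uncertain. All 15 genes that rose most and all 15 that fell most were also DEGs under median ratio scaling. That scaling moved the changes of genes by a similar small amount, so calls this large could hardly be lost by it.

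**Figure D1:**
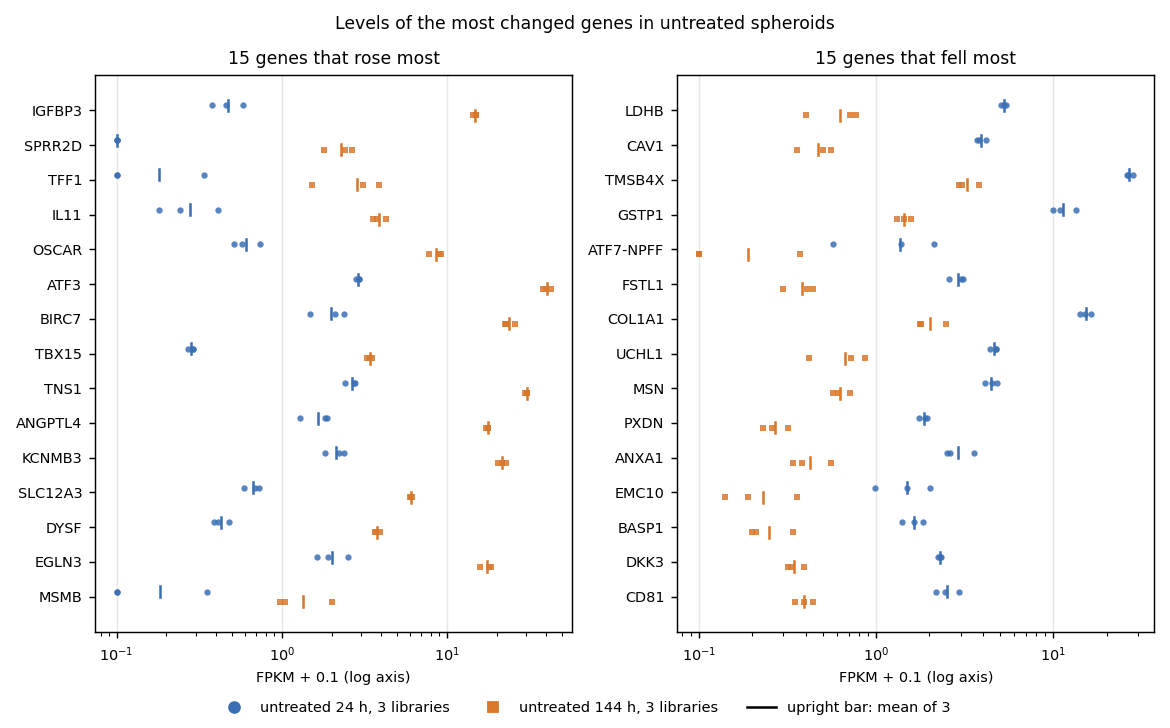
Levels of the 15 genes that rose most and the 15 that fell most in untreated spheroids, each point a library at 24 h (blue circles) or 144 h (orange squares), upright bars the mean of 3, on a log axis of FPKM + 0.1. The 3 libraries of each time form separate groups in every row because only such genes were chosen. Mean levels were at most 2.79 FPKM at 24 h among the genes that rose and at most 3.18 FPKM at 144 h among those that fell.

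Hypoxia-responsive genes rose almost throughout. Of 27 listed targets tested, 25 rose and 0 fell, against 6.80% of all genes tested that were higher, and their median log2 fold change was 1.41 beside −0.18 for all genes. Their summed level went from 1320 to 1469 FPKM at 24 h to 3893 to 4018 FPKM at 144 h. Under median ratio and quantile scaling 25 rose as well.

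The secreted and signalling members were among those that changed most. ANGPTL4, an inhibitor of lipoprotein lipase, rose 11.3-fold, from 1.72, 1.77 and 1.18 FPKM at 24 h to 17.6, 17.7 and 17.2 FPKM at 144 h (log2 fold change 3.43 ± 0.13 (SE), adjusted p = 4.21e-11). VEGFA, the main growth factor for blood vessels, rose from 59.9, 56.8 and 52.3 FPKM at 24 h to 249, 281 and 272 FPKM at 144 h (log2 fold change 2.25 ± 0.06 (SE), adjusted p = 2.59e-12). The vasodilator peptide gene ADM rose from 13.98, 13.1 and 10.6 FPKM at 24 h to 79.9, 80.3 and 82.9 FPKM at 144 h (log2 fold change 2.69 ± 0.09 (SE), adjusted p = 1.97e-11). In all 3 genes the libraries at 144 h lay within a narrow band far above those at 24 h.

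Regulators of the oxygen response itself rose too. EGLN3, a prolyl hydroxylase that marks HIF for degradation, rose from 2.4, 1.79 and 1.53 FPKM at 24 h to 18.4, 15.7 and 17.7 FPKM at 144 h (log2 fold change 3.13 ± 0.13 (SE), adjusted p = 2.05e-10), and its relative EGLN1 rose by 0.74 on the log2 scale. The transcriptional repressor BHLHE40 rose from 31.8, 29.3 and 26.2 FPKM at 24 h to 151, 154 and 157 FPKM at 144 h (log2 fold change 2.40 ± 0.06 (SE), adjusted p = 2.49e-12). ANKRD37, an ankyrin repeat protein, rose from 14.6, 12.4 and 8.95 FPKM at 24 h to 57.6, 63.2 and 61.4 FPKM at 144 h (log2 fold change 2.36 ± 0.13 (SE), adjusted p = 2.23e-09). NDRG1, one of the most abundant members, rose from 96.1, 96.8 and 83.9 FPKM at 24 h to 540.2, 558 and 584 FPKM at 144 h (log2 fold change 2.60 ± 0.05 (SE), adjusted p = 5.93e-13).

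Among members that handle acid, sugar and matrix, the membrane carbonic anhydrase CA9 rose from 22.8, 21.1 and 17.4 FPKM at 24 h to 83.5, 85.3 and 94.8 FPKM at 144 h (log2 fold change 2.11 ± 0.08 (SE), adjusted p = 1.16e-10). PFKFB3, which makes the activator of phosphofructokinase, rose from 13.8, 12.9 and 11.7 FPKM at 24 h to 61.4, 63.4 and 62.7 FPKM at 144 h (log2 fold change 2.28 ± 0.06 (SE), adjusted p = 5.21e-12). The glucose transporter SLC2A3 rose from 162, 153 and 146 FPKM at 24 h to 425, 424 and 427 FPKM at 144 h (log2 fold change 1.47 ± 0.03 (SE), adjusted p = 1.46e-12). Collagen- and elastin-modifying enzymes rose as well, namely the lysyl oxidase LOX (log2 fold change 1.37), the lysyl hydroxylase PLOD2 (1.16) and the prolyl hydroxylases P4HA1 (1.03) and P4HA2 (0.99). The mitophagy receptors BNIP3 and BNIP3L had log2 fold changes of 1.12 and 1.29.

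The members that were not DEGs were the glucose transporter SLC2A1, at 98.7, 99.6 and 99.2 FPKM at 24 h and 125, 127 and 129.7 FPKM at 144 h (log2 fold change 0.36 ± 0.03 (SE), adjusted p = 1.56e-07), and the mitochondrial adenylate kinase AK4, at 65.8, 63.95 and 63.2 FPKM at 24 h and 68.8, 64.8 and 64.8 FPKM at 144 h (0.04 ± 0.03 (SE), adjusted p = 0.25). In SLC2A1 the times did not overlap but the difference was below the fold-change threshold. In AK4 they overlapped. CA12 and CXCR4 did not pass the filter and stayed at or below 0.06 FPKM.

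**Figure D2:**
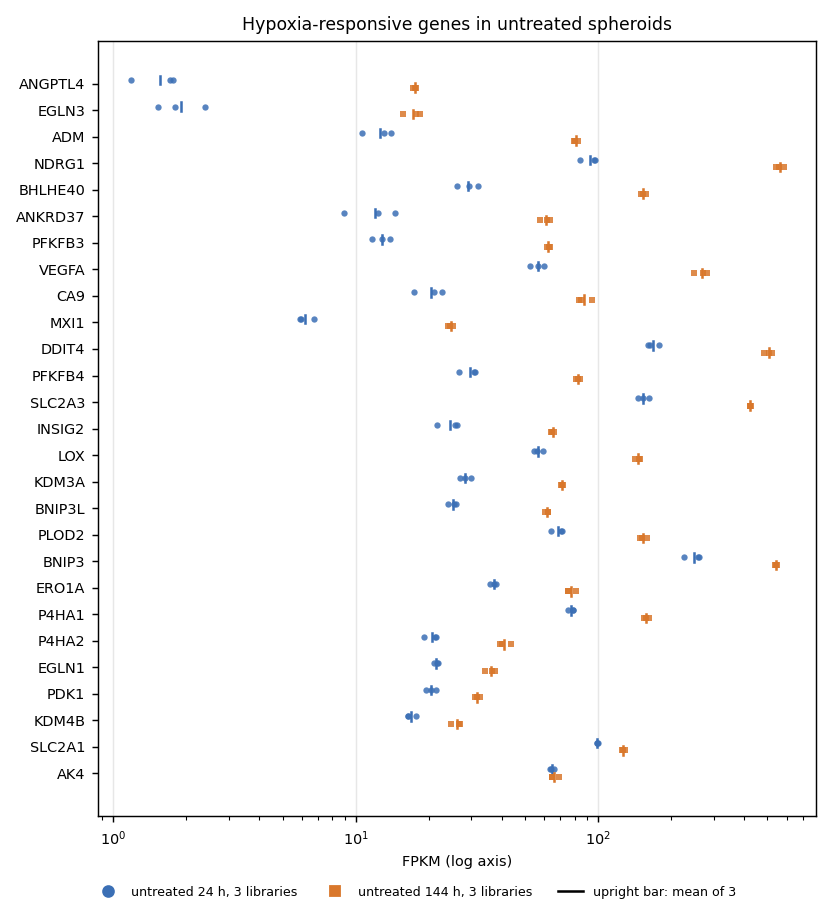
FPKM of the 27 hypoxia-responsive genes tested, on a log axis, with each library as a point (24 h blue circles, 144 h orange squares) and the mean of 3 as an upright bar, ordered by log2 fold change. The times are apart in every row from ANGPTL4 at the top to SLC2A1, and overlap in AK4 at the bottom.

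Promoter sequence of these genes is shown because the list is defined by a factor with a known binding core. The 250 bases before each RefSeq start site (GRCh38.p14) were searched on both strands for ACGTG. Of the 27 members 23 had a promoter in the reference table, and 20 of their 34 promoters (58.8%) held the core, beside 22.4% of the 14001 promoters of all genes tested. Stretches are shown only for called members whose promoter held a match, in order of change, and some called members were not considered. EGLN3 and ADM changed more than BHLHE40 and are not shown. The stretches shown run from 30 bases before the first match to 30 bases after the last, or to the end of the window. They are read 5′ to 3′ on the gene's strand, with ACGTG or its reverse complement CACGT in capitals. Where both overlap they make CACGTG.
ANGPTL4 (chr19:8363905-8363955, + strand): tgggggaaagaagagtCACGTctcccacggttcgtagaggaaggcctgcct
BHLHE40 (chr3:4979187-4979322, + strand): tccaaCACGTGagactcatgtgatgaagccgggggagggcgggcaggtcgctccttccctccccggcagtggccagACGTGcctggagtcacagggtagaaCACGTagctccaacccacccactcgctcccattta
ANKRD37 (chr4:185396649-185396732, + strand): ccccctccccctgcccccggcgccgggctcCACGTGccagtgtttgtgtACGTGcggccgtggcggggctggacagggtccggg
PFKFB3 (chr10:6202794-6202859, + strand): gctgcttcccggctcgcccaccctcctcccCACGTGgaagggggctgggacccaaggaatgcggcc
The stretch of BHLHE40 held 4 matches, that of ANKRD37 held 3, that of PFKFB3 held 2 and that of ANGPTL4 held 1. A match describes the letters of the window only, since no binding was measured in these samples. The list is of known targets of the factor, so the share with the core describes the list and not a response.

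Glycolytic genes changed in both directions. Of 20 members tested, 3 rose and 3 fell (6.80% and 12.2% of all genes), with a median log2 fold change of 0.10. By the adjusted p value alone 11 were higher and 5 lower, beside 20.1% and 52.4% of all genes. Under median ratio scaling 5 rose and 3 fell (10.5% and 5.46% of all genes). Their sum went from 12742 to 13148 FPKM at 24 h to 16443 to 16987 FPKM at 144 h. The hexokinase HK2 rose from 77.97, 76.2 and 75.1 FPKM at 24 h to 234, 242 and 229.6 FPKM at 144 h (log2 fold change 1.62 ± 0.04 (SE), adjusted p = 1.04e-12), ENO2, a neuronal-type enolase, rose by 1.31 on the log2 scale, and the phosphoglycerate kinase PGK1 rose by 0.90. The most abundant member but for GAPDH, the enolase ENO1, read 3521, 3512 and 3396 FPKM at 24 h and 5178, 5038 and 5214 FPKM at 144 h (log2 fold change 0.57 ± 0.03 (SE), adjusted p = 4.44e-10) and missed the fold-change threshold, which it passed under median ratio scaling and without the library of replicate 2 at 144 h. LDHA, the lactate dehydrogenase subunit that acts mostly towards lactate, read 1025, 946 and 934 FPKM at 24 h and 1167, 1131 and 1168 FPKM at 144 h (0.26 ± 0.03 (SE), adjusted p = 1.10e-05) and was not a DEG. The members that fell were all low, LDHB, the muscle phosphofructokinase PFKM (log2 fold change −0.88) and the hexokinase HK1, from 1.42, 1.43 and 1.42 FPKM at 24 h to 0.38, 0.44 and 0.51 FPKM at 144 h (−1.49 ± 0.12 (SE), adjusted p = 9.09e-08).

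Of 76 genes for oxidative phosphorylation, the mitochondrial route of energy supply, 0 rose and 5 fell (6.80% and 12.2% of all genes). Their median log2 fold change was −0.30 beside −0.18 for all genes. Under median ratio scaling 2 fell (5.46% of all genes) and the median was −0.12. By the adjusted p value alone 67 were lower and 3 higher, beside 52.4% and 20.1% of all genes.

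Genes of the cell cycle were lower at 144 h. All 42 DNA replication genes were lower by the adjusted p value alone, beside 52.4% of all genes, and 33 were DEGs, all lower, against 12.2% of all genes, with a median log2 fold change of −0.72. All 45 mitosis genes were lower by the adjusted p value alone and 18 were DEGs, all lower, with a median of −0.53. The number past the fold-change threshold depended on the scaling. Under median ratio scaling 17 of 42 replication genes and 2 of 45 mitosis genes fell, beside 5.46% of all genes. The mitosis count was thus near the share of all genes under that scaling. The medians were −0.54 and −0.36 beside −0.01 for all genes.

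RRM2, a subunit of ribonucleotide reductase, which supplies deoxynucleotides, fell from 101, 103 and 102 FPKM at 24 h to 49.6, 48.01 and 48.8 FPKM at 144 h (log2 fold change −1.07 ± 0.03 (SE), adjusted p = 6.52e-12). PCNA, the sliding clamp of DNA polymerase, fell from 422, 424 and 418 FPKM at 24 h to 233, 228 and 236 FPKM at 144 h (−0.86 ± 0.03 (SE), adjusted p = 1.09e-11). The thymidine kinase TK1 fell from 115, 120.0 and 121 FPKM at 24 h to 56.9, 55.3 and 57.97 FPKM at 144 h (−1.06 ± 0.05 (SE), adjusted p = 2.57e-10). Replicates of these 3 genes lay close together at both times, and the times did not overlap. The helicase subunit MCM2 fell by 0.64 on the log2 scale and lost its call under median ratio scaling.

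Among mitosis genes the anaphase activator CDC20 fell from 88.7, 91.2 and 93.9 FPKM at 24 h to 48.9, 50.1 and 53.03 FPKM at 144 h (log2 fold change −0.85 ± 0.04 (SE), adjusted p = 2.17e-10). The proliferation antigen MKI67 fell from 43.9, 44.8 and 45.1 FPKM at 24 h to 25.8, 27.7 and 23.4 FPKM at 144 h (−0.80 ± 0.06 (SE), adjusted p = 2.22e-08). CCNB1, encoding the mitotic cyclin B1, read 95.4, 97.5 and 95.5 FPKM at 24 h and 64.6, 62.1 and 62.02 FPKM at 144 h (−0.61 ± 0.03 (SE), adjusted p = 6.86e-10) and lost its call under median ratio scaling. CDC20 and MKI67 were the mitosis genes called under that scaling. All the named genes were still well expressed at 144 h.

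Of 15 CDK inhibitor, cyclin D and RB family genes tested, 2 rose and 5 fell (6.80% and 12.2% of all genes), with 2 and 3 under median ratio scaling. CCND1, encoding cyclin D1, which carries growth signals into the cell cycle, fell from 69.5, 70.7 and 71.6 FPKM at 24 h to 40.97, 41.3 and 41.5 FPKM at 144 h (log2 fold change −0.77 ± 0.03 (SE), adjusted p = 3.66e-11), and CCND3 fell by 1.17 on the log2 scale. The inhibitor CDKN1A (p21) read 41.4, 39.2 and 40.6 FPKM at 24 h and 33.2, 36.3 and 35.8 FPKM at 144 h (−0.20 ± 0.04 (SE), adjusted p = 4.78e-04), close to the change of the median gene. CCND2 rose by 0.86 and CDKN2B rose by 1.42 on the log2 scale, both from means below 1 FPKM.

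Promoters of replication genes are shown because E2F factors, which open S phase, bind TTTCGCG and TTTGGCG. Of the 42 replication genes 36 had promoters in the table. TTTCGCG on either strand lay in 7 of their 46 promoters (15.2%), beside 1.89% of all promoters, and TTTGGCG in 10 (21.7%), beside 2.3%. RRM2 and TK1 fell more than the genes shown here, which were chosen among members with a match. The stretches of E2F2, itself an E2F factor (log2 fold change −0.95), and UHRF1, which maintains DNA methylation after replication (−0.91), were taken in the same way, with the motifs in capitals.
E2F2 (chr1:23531239-23531320, − strand): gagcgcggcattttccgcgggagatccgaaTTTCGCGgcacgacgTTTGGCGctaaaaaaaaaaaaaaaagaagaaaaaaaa
UHRF1 (chr19:4909954-4910020, + strand): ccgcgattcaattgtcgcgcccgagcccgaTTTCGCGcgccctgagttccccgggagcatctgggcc
Of the 45 mitosis genes 39 had promoters in the table. TTTGAA, the cell cycle homology region at which mitotic genes are repressed outside division, lay in 22 of their 49 promoters (44.9%), beside 9.09% of all promoters, and CCAAT in 36 (73.5%), beside 33.3%. Short motifs occur often by their length, and these shares describe the lists and not a response.

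Stellate, mesenchymal and collagen genes fell more often than they rose. Of 46 genes in the lists of stellate markers, mesenchymal markers and collagens, 8 rose and 26 fell (6.80% and 12.2% of all genes). Of the 24 with a mean below 10 FPKM at 24 h, a split chosen after seeing the data, 4 rose and 16 fell, with a median log2 fold change of −1.85. Of the 22 at or above 10 FPKM, 4 rose and 10 fell, with a median of −0.33. Both levels thus held genes that rose and more genes that fell. Split instead by the mean over the 12 libraries, 2 rose and 19 fell among the 24 below 10 FPKM, and 6 rose and 7 fell among the 22 others. The change itself helps set the side of that split, since for example VIM and COL1A1 were above 10 FPKM at 24 h and below it in the mean of all libraries, and COL16A1 and TPM2 the reverse. These are bulk libraries, in which fewer cells of a type and less RNA per cell cannot be told apart.

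Among 17 collagens tested, 1 rose and 10 fell (6.80% and 12.2% of all genes), with a median log2 fold change of −1.78. Under median ratio scaling 3 rose and 10 fell (10.5% and 5.46% of all genes). COL1A1, which encodes the main chain of type I collagen, fell from 14.1, 16.3 and 14.9 FPKM at 24 h to 2.38, 1.68 and 1.69 FPKM at 144 h (log2 fold change −2.93 ± 0.14 (SE), adjusted p = 3.81e-10). COL3A1, of type III collagen, fell from 3.24, 3.75 and 3.44 FPKM at 24 h to 0.6, 0.35 and 0.56 FPKM at 144 h (−2.59 ± 0.18 (SE), adjusted p = 2.23e-08). The other fibrillar chains COL1A2 (log2 fold change −1.82), COL5A1 (−2.43) and COL5A2 (−2.40), the basement membrane chains COL4A1 (−2.31) and COL4A2 (−1.88), and the chains of type VI collagen COL6A1 (−0.83), COL6A2 (−1.78) and COL6A3 (−1.99) fell too. Every one of these was at or below 16.3 FPKM in all 6 libraries, and each time formed a separate group.

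The other 7 collagens tested were not among these falls. COL16A1 rose from 6.15, 6.09 and 7.55 FPKM at 24 h to 11, 11.6 and 11.8 FPKM at 144 h (log2 fold change 0.80 ± 0.08 (SE), adjusted p = 9.21e-07). COL18A1, a basement membrane collagen, read 43.2, 45.9 and 47.4 FPKM at 24 h and 47.3, 47.8 and 48.97 FPKM at 144 h (0.08 ± 0.04 (SE), adjusted p = 0.071), and COL9A3 read 81.9, 89.4 and 85.6 FPKM at 24 h and 72.7, 76.6 and 77.9 FPKM at 144 h (−0.18 ± 0.04 (SE), adjusted p = 0.001). Neither of the latter was a DEG, and in COL9A2 (0.01) the times overlapped.

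The intermediate filament gene VIM, a general mesenchymal marker, fell from 14, 17.1 and 15.9 FPKM at 24 h to 2.32, 1.74 and 3.25 FPKM at 144 h (log2 fold change −2.67 ± 0.16 (SE), adjusted p = 6.17e-09). THY1, a surface protein of fibroblasts, fell from 0.92, 1.12 and 1.12 FPKM at 24 h to 0.06, 0.11 and 0.08 FPKM at 144 h (−2.66 ± 0.19 (SE), adjusted p = 3.12e-08). TAGLN, a smooth muscle protein, fell by 2.11 on the log2 scale and the matrix protein SPARC by 1.01. Against these falls, ACTA2, the smooth muscle actin of activated stellate cells, read 58.4, 57.96 and 57.1 FPKM at 24 h and 45.2, 48.2 and 50.3 FPKM at 144 h (−0.27 ± 0.04 (SE), adjusted p = 3.40e-05), close to the median gene, and PDGFRB had a log2 fold change of −0.01 ± 0.07 (SE), adjusted p = 0.93. Of the 7 stellate markers tested 0 rose and 4 fell (12.2% of all genes were lower), and by the adjusted p value alone 0 were higher and 6 lower (52.4% of all genes), PDGFRB being the exception, with a median log2 fold change of −0.89.

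CCN2, the connective tissue growth factor, rose from 139.8, 137 and 136 FPKM at 24 h to 280.0, 274 and 279 FPKM at 144 h (log2 fold change 1.01 ± 0.04 (SE), adjusted p = 3.12e-11). TGFBI, a matrix protein induced by TGF-beta, rose from 219.7, 211 and 218 FPKM at 24 h to 334, 332 and 342 FPKM at 144 h (0.64 ± 0.03 (SE), adjusted p = 2.78e-10). Both genes are also targets of TGF-beta or YAP. Of 20 members of that list 6 rose and 1 fell (6.80% and 12.2% of all genes), with a median of 0.11. The receptor tyrosine kinase AXL (log2 fold change 1.33), the repressor ZEB1 (0.97) and the tropomyosin TPM2 (1.01) rose as well, while LGALS1, encoding galectin-1, read 87.3, 86.6 and 89.7 FPKM at 24 h and 126, 122 and 125 FPKM at 144 h (0.50 ± 0.04 (SE), adjusted p = 4.78e-08), below the fold-change threshold as deposited and past it under median ratio scaling. The summed level of the 40 mesenchymal genes went from 1291 to 1355 FPKM at 24 h to 2043 to 2126 FPKM at 144 h, and the part of any shift in cell types in these results was not tested.

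**Figure D3:**
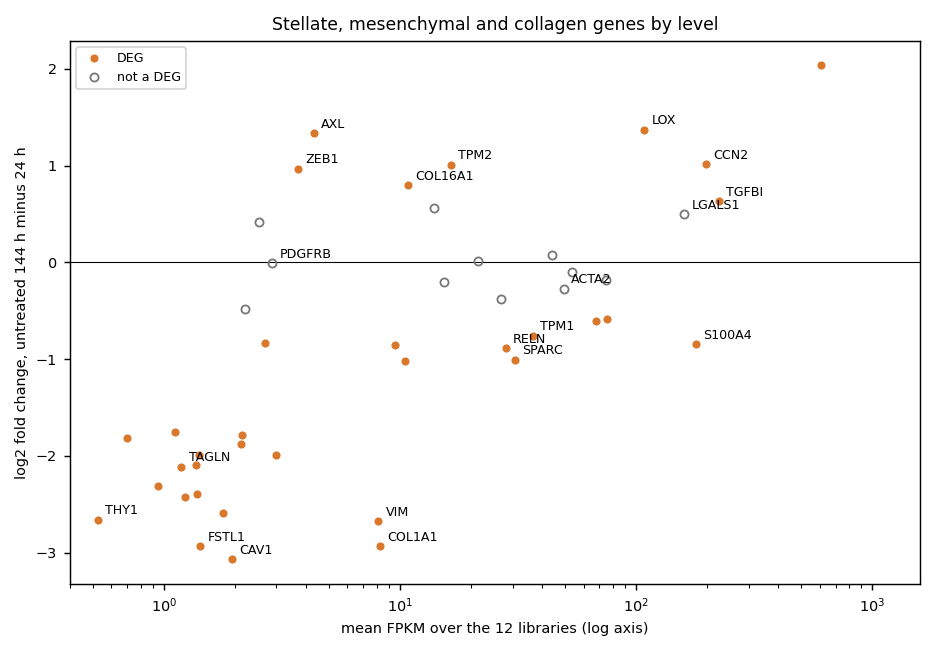
Log2 fold change, untreated 144 h minus 24 h, of the 46 stellate, mesenchymal and collagen genes tested against their mean FPKM over the 12 libraries on a log axis, filled points DEGs and open points not DEGs. The 26 DEGs under 0 are found at low levels (THY1) and at higher ones (SPARC), while 8 lie above it, among them LOX and CCN2, and since the level includes the libraries compared, a change also moves a point along that axis.

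Genes of hepatocyte function changed in both directions. Of 12 hepatocyte markers 2 rose and 1 fell (6.80% and 12.2% of all genes), and by the adjusted p value alone 6 were higher and 4 lower (20.1% and 52.4% of all genes), with a median log2 fold change of 0.04 beside −0.18 for all genes. Of 22 plasma protein genes tested 8 rose and 3 fell, and 12 were higher and 6 lower by the adjusted p value alone. Their median was 0.34, and their sum went from 17154 to 17780 FPKM to 21443 to 22786 FPKM. AHSG, encoding the plasma glycoprotein fetuin-A, rose from 2834, 2832 and 2749 FPKM at 24 h to 5596, 5411 and 5755 FPKM at 144 h (log2 fold change 0.99 ± 0.03 (SE), adjusted p = 2.82e-11). The iron carrier gene TF rose by 0.62 on the log2 scale and the copper-carrying ferroxidase gene CP by 1.18. ALB had a log2 fold change of 0.46 ± 0.04 (SE), adjusted p = 4.69e-07, below the threshold as deposited and past it under median ratio scaling. The haem carrier gene HPX fell from 2.46, 1.88 and 1.78 FPKM at 24 h to 0.6, 0.54 and 0.4 FPKM at 144 h (−1.80 ± 0.19 (SE), adjusted p = 9.81e-07), from a level far below that of the others.

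SERPINA1, encoding alpha-1 antitrypsin, read 3738, 3701 and 3639 FPKM at 24 h and 3770, 3604 and 3636 FPKM at 144 h (log2 fold change −0.01 ± 0.03 (SE), adjusted p = 0.8). The oncofetal genes AFP (4401, 4112 and 4388 FPKM at 24 h and 4552, 4109 and 4250 FPKM at 144 h) and GPC3 (1489, 1467 and 1449 FPKM at 24 h and 1514, 1476 and 1504 FPKM at 144 h) had log2 fold changes of 0.00 ± 0.05 (SE), adjusted p = 0.99, and 0.03 ± 0.03 (SE), adjusted p = 0.31. None of these was a DEG, and the times overlapped in all 3. APOB, the structural protein of very low density lipoprotein, read 713, 749 and 824 FPKM at 24 h and 493, 565 and 402 FPKM at 144 h (−0.66 ± 0.09 (SE), adjusted p = 2.04e-05), and lost its call under median ratio scaling and without the library of replicate 3 at 144 h. Of 21 apolipoprotein and lipoprotein genes 2 rose and 1 fell (6.80% and 12.2% of all genes).

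Of 24 hepatocyte transcription factors 3 rose and 2 fell, beside 6.80% higher and 12.2% lower of all genes, and under median ratio scaling 5 rose and 1 fell. CEBPB, a factor of the liver's stress and acute phase responses, rose from 29.2, 29.6 and 27.2 FPKM at 24 h to 53.2, 53.9 and 56.5 FPKM at 144 h (log2 fold change 0.93 ± 0.04 (SE), adjusted p = 2.94e-10). The xenobiotic receptor NR1I2 fell from 8.88, 9.4 and 9.75 FPKM at 24 h to 4.3, 4.77 and 5.04 FPKM at 144 h (−0.98 ± 0.06 (SE), adjusted p = 1.06e-08). HNF4A (−0.31 ± 0.03), a central regulator of the hepatocyte programme, was not a DEG. CEBPA (−0.59 ± 0.05) lay at the fold-change threshold and lost its call under median ratio and quantile scaling and without the library of replicate 3 at 24 h or replicate 2 at 144 h.

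Many cytochrome P450 genes of adult hepatocytes were scarcely detected, so their change could not be measured at this depth. Of 21 P450 and partner genes 10 passed the filter, of which 0 rose and 1 fell, CYP2W1 (log2 fold change −0.74), whose call was lost under median ratio scaling. CYP3A4 reached at most 0.06 FPKM, CYP2E1 at most 0.08 FPKM, CYP1A2 at most 0.11 FPKM and CYP7A1, the rate-limiting enzyme of bile acid synthesis, at most 0.04 FPKM. Of 24 conjugating enzymes 2 rose and 6 fell, and of 15 bile acid genes 1 rose and 5 fell (6.80% and 12.2% of all genes), with 2 falls under median ratio scaling in each list. By the adjusted p value alone 15 of the conjugating enzymes and 13 of the bile acid genes were lower, beside 52.4% of all genes.

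Among glucose-producing and glycogen genes, 6 of 16 rose and 0 fell (6.80% and 12.2% of all genes). PCK1, the rate-limiting enzyme of gluconeogenesis, rose from 1.24, 1.12 and 1.37 FPKM at 24 h to 10.6, 10.5 and 10.5 FPKM at 144 h (log2 fold change 2.99 ± 0.10 (SE), adjusted p = 2.89e-11). G6PC1, the catalytic subunit of glucose-6-phosphatase, rose from 0.5, 0.6 and 0.32 FPKM at 24 h to 2.17, 1.98 and 1.92 FPKM at 144 h (1.92 ± 0.18 (SE), adjusted p = 4.13e-07). Both started low, with libraries at 144 h all above those at 24 h. The urea cycle enzyme ASS1 fell from 139, 137 and 142 FPKM at 24 h to 75.02, 76.7 and 75.6 FPKM at 144 h (−0.88 ± 0.03 (SE), adjusted p = 2.29e-11), and the liver glutaminase GLS2 fell by 1.03 on the log2 scale. HAL, which starts histidine breakdown, rose from 0.45, 0.39 and 0.3 FPKM at 24 h to 4.26, 3.65 and 3.48 FPKM at 144 h (3.03 ± 0.16 (SE), adjusted p = 1.84e-09). In all, 4 of 27 urea cycle and amino acid genes rose and 9 fell. By the adjusted p value alone 19 were lower (52.4% of all genes). ARG1 and OTC stayed at or below 0.36 FPKM.

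The insulin-like growth factor IGF2, a fetal growth factor, rose from 949, 1016 and 836 FPKM at 24 h to 2453, 2606 and 2620 FPKM at 144 h (log2 fold change 1.46 ± 0.06 (SE), adjusted p = 1.45e-10). IGFBP1, a liver-made carrier of these factors, rose from 265, 245 and 226 FPKM at 24 h to 750.5, 681 and 726 FPKM at 144 h (1.55 ± 0.05 (SE), adjusted p = 1.42e-11). With IGFBP3, 3 of 18 members of the IGF and growth factor receptor list rose and 2 fell, with a median of 0.06 (6.80% and 12.2% of all genes rose and fell). IGF2 itself was listed with the fetal genes, of which 2 of 14 rose and 3 fell.

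Lipid genes changed in both directions. PLIN2, which coats lipid droplets, rose from 418, 385 and 375 FPKM at 24 h to 946, 926 and 959 FPKM at 144 h (log2 fold change 1.27 ± 0.04 (SE), adjusted p = 5.21e-12). HILPDA, an inhibitor of lipid droplet lipolysis that is also induced by hypoxia, rose from 6.99, 7.79 and 4.79 FPKM at 24 h to 25.6, 25.3 and 27.3 FPKM at 144 h (2.01 ± 0.13 (SE), adjusted p = 7.51e-09). The enzymes of the last step of triglyceride synthesis fell, DGAT1 from 45.4, 48.5 and 49.99 FPKM at 24 h to 18.4, 21.7 and 21.8 FPKM at 144 h (−1.22 ± 0.07 (SE), adjusted p = 2.06e-09) and DGAT2 by 0.93 on the log2 scale. Of the 17 lipid droplet and triglyceride genes tested, 3 rose and 4 fell under both scalings. Of all genes 6.80% rose and 12.2% fell as deposited, and 10.5% and 5.46% under median ratio scaling.

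Of 22 cholesterol synthesis genes 0 rose and 6 fell, with a median log2 fold change of −0.44, and of 14 fatty acid synthesis genes 0 rose and 5 fell, with a median of −0.41, beside 12.2% lower and a median of −0.18 for all genes. Under median ratio scaling 1 gene fell in each list (5.46% of all genes). The mevalonate kinase MVK fell from 35, 39.1 and 37.9 FPKM at 24 h to 21.9, 17.7 and 20.2 FPKM at 144 h (−0.91 ± 0.06 (SE), adjusted p = 2.48e-08), and the fatty acid synthase FASN from 165, 177 and 183 FPKM at 24 h to 102, 116 and 92.9 FPKM at 144 h (−0.76 ± 0.07 (SE), adjusted p = 2.12e-07). CACCCCAC, a sterol response element, lay in 1 of 22 promoters of 17 members (4.55%), beside 2.34% of all promoters.

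Stress genes of the endoplasmic reticulum and of amino acid shortage rose in part. Of 24 chaperone and unfolded protein response genes 8 rose and 0 fell, with a median log2 fold change of 0.41, and of 24 ATF4-linked genes 10 rose and 0 fell, with a median of 0.36 (6.80% of all genes were higher). Under median ratio scaling 13 and 12 rose (10.5% of all genes). DDIT3, the stress transcription factor CHOP, rose from 23.8, 20.4 and 19.5 FPKM at 24 h to 128, 125 and 137 FPKM at 144 h (log2 fold change 2.61 ± 0.09 (SE), adjusted p = 3.26e-11). DNAJB9, a co-chaperone, rose from 11.5, 11.2 and 10.4 FPKM at 24 h to 44.5, 40.4 and 44.4 FPKM at 144 h (1.96 ± 0.05 (SE), adjusted p = 3.05e-12). HSPA5, the chaperone BiP, rose from 425, 431 and 433 FPKM at 24 h to 832, 794 and 826 FPKM at 144 h (0.93 ± 0.03 (SE), adjusted p = 1.46e-11).

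The stress sensor kinase ERN1 rose by 1.83 on the log2 scale, whereas its substrate XBP1, measured over all its transcripts, read 165, 159 and 167 FPKM at 24 h and 155, 154 and 157 FPKM at 144 h (−0.08 ± 0.03 (SE), adjusted p = 0.018) and was not a DEG. ASNS, which makes asparagine, rose from 25.01, 22.7 and 23.9 FPKM at 24 h to 69.4, 69.9 and 72.5 FPKM at 144 h (1.56 ± 0.04 (SE), adjusted p = 3.14e-12). The pseudokinase TRIB3 rose from 103, 107 and 104 FPKM at 24 h to 207, 211 and 223 FPKM at 144 h (1.03 ± 0.03 (SE), adjusted p = 7.56e-12). ATF4, which is regulated mainly in translation, read 439, 424 and 437 FPKM at 24 h and 496, 487 and 507 FPKM at 144 h (0.20 ± 0.03 (SE), adjusted p = 1.00e-05) and was not a DEG. GDF15, a stress-induced hormone listed with the p53 targets, rose from 117, 114 and 106 FPKM at 24 h to 320.0, 342 and 345 FPKM at 144 h (1.58 ± 0.05 (SE), adjusted p = 6.52e-12). Of the 24 p53 targets 5 rose and 5 fell (6.80% and 12.2% of all genes), FAS, a death receptor, among the latter (−1.08).

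Of 24 immediate early and MAPK feedback genes 10 rose and 1 fell (6.80% and 12.2% of all genes), with a median log2 fold change of 0.45. The phosphatase DUSP1 rose from 11.2, 13.2 and 10.3 FPKM at 24 h to 61.2, 60.6 and 65.9 FPKM at 144 h (log2 fold change 2.43 ± 0.07 (SE), adjusted p = 5.21e-12). DUSP5 rose from 0.74, 0.75 and 0.46 FPKM at 24 h to 5.36, 5.86 and 5.88 FPKM at 144 h (2.98 ± 0.18 (SE), adjusted p = 4.94e-09), and the EGF receptor ligand AREG from 0.77, 0.61 and 0.67 FPKM at 24 h to 3.71, 2.17 and 3.16 FPKM at 144 h (1.96 ± 0.20 (SE), adjusted p = 9.54e-07). FOS (1.49 ± 0.20) and JUN (1.28 ± 0.06), the partners of the AP-1 factor, rose as well, while MYC read 58.1, 57.9 and 58.8 FPKM at 24 h and 54.8, 58.1 and 57.98 FPKM at 144 h (−0.03 ± 0.03 (SE), adjusted p = 0.3) with overlapping libraries.

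Most ribosomal protein genes were higher at 144 h by a small amount. By the adjusted p value alone 74 of 77 were higher and 1 was lower, beside 20.1% and 52.4% of all genes. Their median log2 fold change was 0.39. As DEGs 6 rose and 1 fell, beside 6.80% and 12.2% of all genes, so the share that rose was near that of all genes. Their sum went from 106620 to 111014 FPKM to 136210 to 141734 FPKM, so a larger part of each library's total was taken by them at 144 h. The size of the shift depended on the scaling. Under median ratio scaling 33 rose (10.5% of all genes) with a median of 0.56, and under quantile normalization 7 rose with a median of 0.14. RPS26 fell from 369.8, 359.7 and 354 FPKM at 24 h to 208, 213 and 219 FPKM at 144 h (−0.76 ± 0.03 (SE), adjusted p = 3.12e-10), a call lost under median ratio scaling. These short genes have many processed pseudogenes, and reads shared with them could be split in the counting.

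Genes of the NRF2 antioxidant response fell in part. Of 24 tested, 0 rose and 8 fell (12.2% of all genes were lower), with a median log2 fold change of −0.38, and under median ratio scaling 7 fell (5.46% of all genes). NQO1, a quinone reductase, fell from 439, 434 and 435 FPKM at 24 h to 249.5, 239 and 248 FPKM at 144 h (log2 fold change −0.83 ± 0.03 (SE), adjusted p = 1.97e-11). The glutathione peroxidase GPX2 fell from 632, 674 and 621 FPKM at 24 h to 315, 305 and 317 FPKM at 144 h (−1.04 ± 0.04 (SE), adjusted p = 2.26e-11). AKR1B10, an aldo-keto reductase abundant in hepatoma, fell from 171, 188 and 162 FPKM at 24 h to 98.2, 87.4 and 89.6 FPKM at 144 h (−0.92 ± 0.05 (SE), adjusted p = 3.66e-09). In each the libraries at 144 h stood close to each other and far below those at 24 h.

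FTL, the light chain of the iron store ferritin, fell from 9998, 9658 and 9661 FPKM at 24 h to 5109, 5090 and 5145 FPKM at 144 h (log2 fold change −0.93 ± 0.03 (SE), adjusted p = 9.48e-12). The heavy chain FTH1 read 1867, 1806 and 1808 FPKM at 24 h and 1605, 1586 and 1615 FPKM at 144 h (−0.19 ± 0.03 (SE), adjusted p = 2.15e-05) and changed by about as much as the median gene. HAMP, the iron hormone hepcidin, rose from 147, 130.3 and 152 FPKM at 24 h to 416, 389 and 419 FPKM at 144 h (1.51 ± 0.10 (SE), adjusted p = 1.03e-08). BMP6, a signal that induces HAMP, rose from 0.28, 0.32 and 0.26 FPKM at 24 h to 1.41, 1.26 and 1.34 FPKM at 144 h (1.90 ± 0.14 (SE), adjusted p = 2.83e-08). Of 17 iron and BMP genes 5 rose and 1 fell (6.80% and 12.2% of all genes), FTL being the latter.

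Of 12 metallothionein and zinc transport genes 0 rose and 6 fell (12.2% of all genes were lower), 3 under median ratio scaling (5.46%). MT1G fell from 394, 370.0 and 349 FPKM at 24 h to 196, 147 and 141 FPKM at 144 h (log2 fold change −1.21 ± 0.09 (SE), adjusted p = 5.74e-08). MT2A read 966, 1064 and 1012 FPKM at 24 h and 747, 503 and 638 FPKM at 144 h (−0.71 ± 0.10 (SE), adjusted p = 2.19e-05), a call that was lost under median ratio scaling and without the library of replicate 2 at 144 h. Metallothionein genes are close copies of each other, so reads could be split among them.

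Of 14 interferon-stimulated genes tested 3 rose and 7 fell (6.80% and 12.2% of all genes), 3 and 5 under median ratio scaling, with 13 of the 27 listed below the filter. IFITM1 rose from 28.02, 33.9 and 31.98 FPKM at 24 h to 60.8, 63.6 and 66.2 FPKM at 144 h (log2 fold change 1.02 ± 0.06 (SE), adjusted p = 1.83e-09) and the ubiquitin-like modifier ISG15 from 42.6, 45.7 and 37.8 FPKM at 24 h to 74.8, 80.4 and 83.3 FPKM at 144 h (0.92 ± 0.06 (SE), adjusted p = 1.68e-08). IFI6 fell from 5.32, 7.93 and 6.77 FPKM at 24 h to 1.5, 2.52 and 2.51 FPKM at 144 h (−1.59 ± 0.25 (SE), adjusted p = 5.78e-05). By the adjusted p value alone 3 of the 14 were higher and 10 lower, beside 20.1% and 52.4% of all genes. Their median log2 fold change was −0.54. The genes of this list moved in both directions, with more of them lower.

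Counts in the remaining lists are read against 6.80% higher and 12.2% lower of all genes. They were those for complement (3 of 18 rose and 3 fell), coagulation (1 of 20 rose and 1 fell), acute phase proteins (3 of 13 and 3), cytokines and NF-kB targets (2 of 12 and 2), fatty acid oxidation (1 of 21 and 2), integrins (3 of 15 and 2), matrix glycoproteins (3 of 26 and 7), keratins and junctions (3 of 29 and 5), BCL2 family and cell death (2 of 23 and 5), tubulins (5 of 15 and 1) and WNT targets (1 of 15 and 6). Of the 10 culture markers of the study 8 passed the filter, and COL1A1 and APOB fell. The lipid transporter SLC27A2 (−0.37 ± 0.06) and the housekeeping gene HPRT1 (0.13 ± 0.07) were not DEGs.

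**Figure D4:**
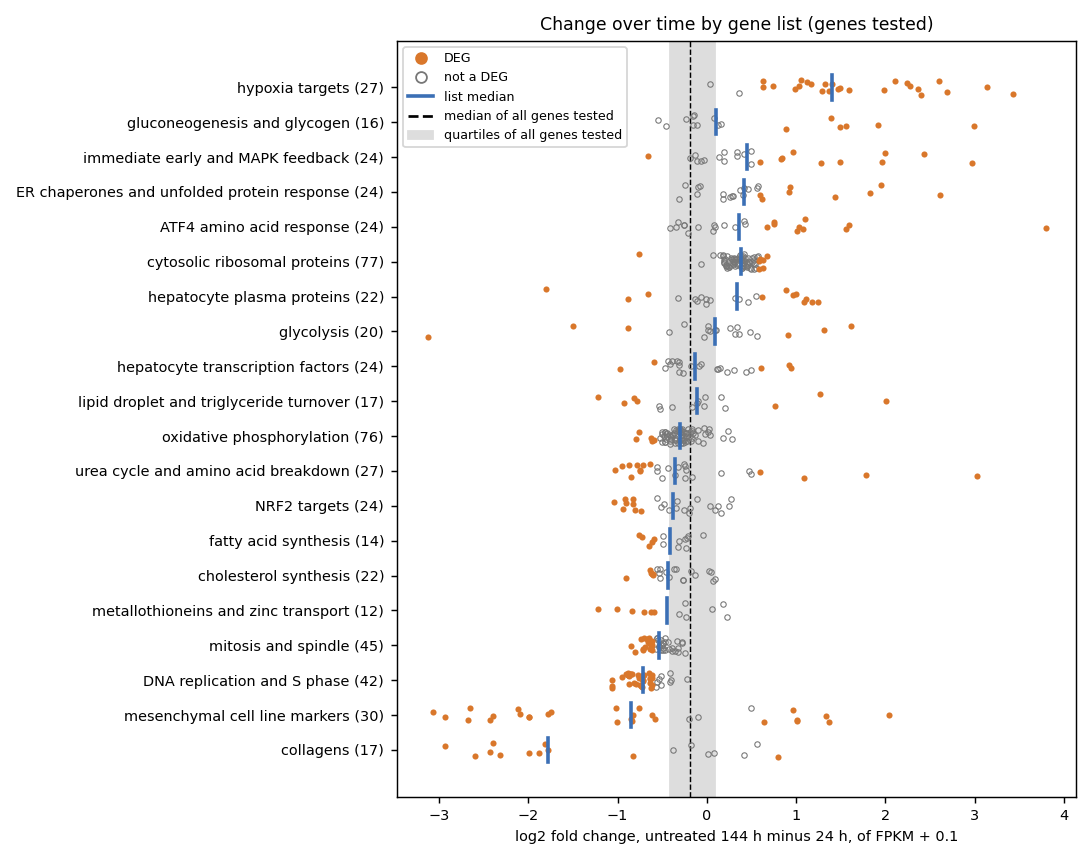
Log2 fold change, untreated 144 h minus 24 h, of every gene tested in selected lists (number tested in brackets), filled points DEGs, open points not DEGs, blue bars list medians, with the dashed line and grey band the median and quartiles of all genes tested (−0.18, −0.41 and 0.09). The median of the hypoxia targets (1.41) lies to the right of the band and those of replication (−0.72), mitosis (−0.53) and collagen genes (−1.78) to its left, while single members such as AK4 and COL18A1 lie inside the band and COL16A1 to its right.

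Spheroids exposed to 1% TPN over the same interval served to show which changes were particular to the untreated cultures. Their libraries are separate at both times, and the same model gave 3123 DEGs over time (26.7%), 1114 higher (9.51%) and 2009 lower (17.2%). Of the 2230 DEGs of untreated spheroids 1658 (74.35%, or 53.09% of the exposed DEGs) were also DEGs of exposed spheroids in the same direction and 17 in the opposite direction. Across the 11713 genes tested the changes correlated at r = 0.84, where genes are not independent replicates. The difference between the changes, tested in the same model, was called in 687 genes (5.87%), 195 with the untreated change the higher (1.66%) and 492 with it the lower (4.20%), and 300 of these were DEGs of untreated spheroids.

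Among hypoxia-responsive genes 23 of 27 rose in exposed spheroids beside 25 in untreated ones. The change was smaller without TPN in EGLN3 (log2 fold change 3.13 untreated and 4.16 exposed) and in ANGPTL4 (3.43 and 4.24), and larger without TPN in ANKRD37 (2.36 and 1.69). COL1A1 fell less without TPN (−2.93 and −4.18), as did VIM (−2.67 and −3.50). LGALS1 changed by 0.50 without TPN and by 2.04 with it. All 6 differences passed the test of the difference.

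Of the replication genes 33 of 42 fell in untreated and 41 in exposed spheroids, and of the mitosis genes 18 of 45 and 44. Their medians were −0.72 and −0.53 untreated and −1.07 and −0.97 exposed, and the difference between the changes was called in 0 of 42 and 4 of 45. FTL and NQO1 fell without TPN (−0.93 and −0.83), and their exposed changes of −0.39 and −0.51 were below the fold-change threshold, with no called difference between the changes. GPX2 (−1.04 and −0.26) and AKR1B10 (−0.92 and −0.09) fell only in untreated spheroids and the difference was called. The 10 genes with the largest differences are given in the closing section.

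**Figure D5:**
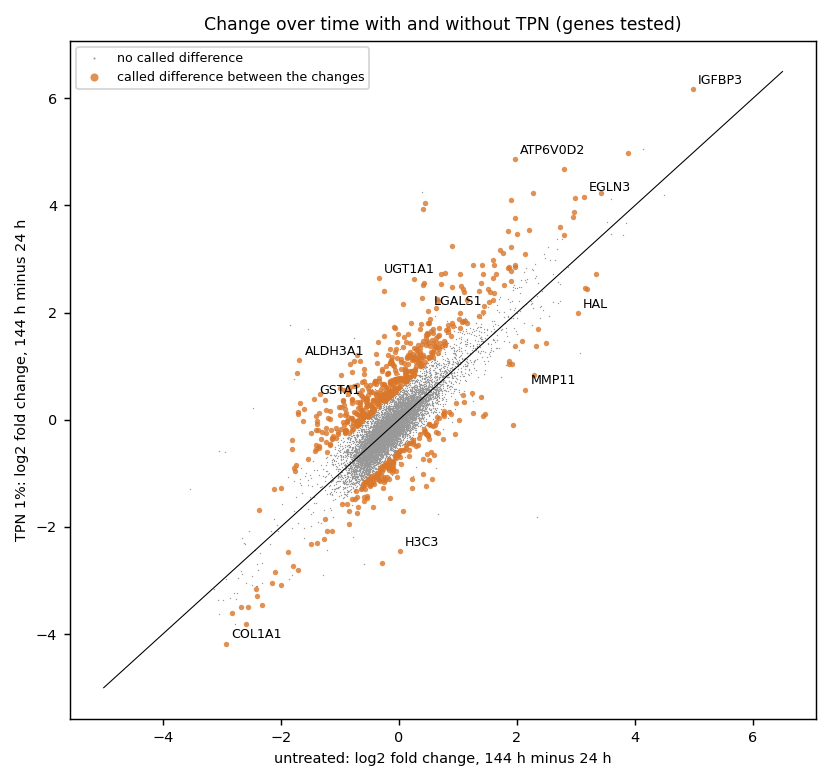
Log2 fold change over time in spheroids with 1% TPN against that in untreated spheroids for the 11713 genes tested, each point a gene, orange where the difference between the changes was called (687 genes), with the line of equal change. Most genes follow the line (r = 0.84 across genes), while UGT1A1, ALDH3A1 and ATP6V0D2 lie above it and COL1A1 and H3C3 below.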

How the data were processed

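Spheroids were sequenced in 12 libraries, 3 for each treatment and time, and labels named the groups and replicates. The authors mapped strand-specific mRNA reads with HISAT2 2.0.4 to GRCh38.p13 and with Bowtie2 2.2.5 to transcripts, and deposited FPKM values from RSEM, rounded to hundredths, 1 column per library. FPKM scales fragment counts by transcript length and by the library's total, so a rise of abundant genes lowers the others. Annotation text that had overflowed into 20 extra rows was left out, and 37 of 16705 genes were 0 in all 12 libraries.

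A gene was tested when its mean FPKM over all 12 libraries reached 0.5 (11713 genes). Values were taken to log2(FPKM + 0.1) and modelled in limma 3.58.1 (R 4.3.3), with the 4 groups in a single model, moderated variances with an intensity trend and Benjamini-Hochberg adjustment over all genes tested. The study's own thresholds defined DEGs, an adjusted p below 0.05 with a log2 fold change beyond 0.58 in either direction. Fold changes on this scale understate the change of low genes. The contrasts were untreated 144 h minus 24 h, the same with 1% TPN, and their difference. Read counts were not used here, so depth was inferred from the spacing of low FPKM values. The study's methods describe separate experiments. The p values measure only the spread between libraries within groups, pooled over the 4 groups of 3 and moderated across genes.

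Genes named were the 15 that rose and the 15 that fell most among DEGs whose groups did not overlap with a mean of at least 1 FPKM in the higher group, members of gene lists by change or level, the study's 10 culture markers and the 10 with the largest difference between the time changes. The members and lists were chosen with earlier results of these data known. Promoters came from RefSeq tables (GRCh38.p14), and stretches overlapping an annotated exon were not printed. Some genes that meet the rule are not reported here. The procedure was tested on simulated data. Alternatives changed the pseudocount, filter, scaling, trend, threshold and libraries in the model, added the replicate number as a block and left out each library in turn, and a GC content and length correction was added after seeing the data. Tables and figures were made in Python 3.11.15 (pandas 2.3.3, matplotlib 3.10.9).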

Additional observations from a re-analysis of the deposited data

Results flagged for a closer look

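Results are flagged here when the change from 24 h to 144 h differed between untreated spheroids and those exposed to 1% TPN by the interaction test of the limma model (Benjamini-Hochberg adjusted p below 0.05 and an absolute difference above 0.58 on the log2 scale). Values are the untreated change minus the exposed change in log2 units. The check for a library far from its group needs at least 4 samples and could not be made with 3 per group, and all deposited value columns were used.

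The 10 genes with the largest differences were histone genes, drug-handling enzymes and a few others. The replication-dependent histone genes H4C8 (−3.61) and H2AC15 (−3.52) had the lower change without TPN, and H3C3 (2.46) and H3C15 (2.39) had the higher change without it. Histone genes are near-identical copies whose transcripts mostly lack poly(A) tails, so their FPKM are uncertain. UGT1A1, which conjugates bilirubin and shares its last exons with the other genes of its locus, had a difference of −2.98, with a log2 fold change of −0.34 in untreated and 2.64 in exposed spheroids. The aldehyde dehydrogenase ALDH3A1 differed by −2.80 (−1.69 untreated and 1.12 exposed). The proton pump subunit ATP6V0D2 (−2.90), TINAG (−2.65), TUSC3 (−2.60) and CALY (−2.37) completed the 10.

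Genes whose untreated change was the lower were IGFBP3 (−1.19), IL11 (−1.10), PCK1 (−1.15), EGLN3 (−1.03), AREG (−0.92), DUSP5 (−0.90), BMP6 (−0.89), CDKN2B (−1.31), IFITM1 (−0.87) and ANGPTL4 (−0.81), all of which rose in untreated spheroids, LGALS1 (−1.54), FTH1 (−0.79) and CDKN1A (−1.06), which were not DEGs there, and AKR1B10 (−0.83), GPX2 (−0.78), HK1 (−1.25), HPX (−1.26), MT2A (−0.69) and COL6A2 (−0.87), which fell there.

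Genes whose untreated change was the higher were COL1A1 (1.25), COL3A1 (1.22), COL6A3 (1.09), COL5A1 (0.73), COL4A2 (0.58), VIM (0.83), MSN (0.78) and MT1G (0.86), which fell in untreated spheroids and fell further with TPN. They also included HAL (1.04), G6PC1 (0.87), SLC12A3 (0.74), DYSF (0.70), KCNMB3 (0.61), ANKRD37 (0.67) and TGFBI (0.68), which rose in untreated spheroids, and COL9A2 (0.71), which was not a DEG there.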

How the results depend on the processing

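All values below are counts of DEGs in the order untreated change, change with 1% TPN and difference between the changes, which were 2230, 3123 and 687. They moved by over 1.5 times with a mean of at least 5 FPKM (1337, 2029 and 282), without the fold-change threshold (8498, 8925 and 3565) and with an absolute log2 fold change above 1 (626, 1027 and 213), which follow from fewer genes tested or from the threshold itself, and with a pseudocount of 1 for the difference (435, the cause was not tested). Leaving out each library in turn gave 2193 to 2293, 3064 to 3195 and 647 to 696. Median ratio scaling moved the median of all genes from −0.18 to −0.01 and the share of higher DEGs from 35.7% to 65.8% untreated (1230 higher, 639 lower) and from 35.7% to 59.8% with TPN (1628 higher, 1094 lower), and quantile normalization gave 1064 higher and 780 lower untreated. For the difference, quantile normalization gave 278 with the untreated change the higher and 436 with it the lower. Of 132 genes named and called, 120 kept call and direction in all alternatives and 12 lost the call in at least 1 (APOB, CCNB1, CEBPA, CYP2W1, MCM2, MT2A and RPS26 under median ratio scaling, and CCND2, CDKN2B, PFKM, TUSC3 and ATP6V0D2 with a pseudocount of 1), and 3 of the other named genes gained one. No direction of a called gene reversed. With the replicate number as a block 2230 genes were DEGs, 797 higher and 1433 lower. Same-numbered libraries deviated together with r = 0.09, 0.02 and 0.15. Only replicate 2 at 144 h correlated better with another number, replicate 1 at 24 h (r = 0.07). The labels do not say whether a number marks 1 experiment, and the numbers were not taken to pair the samples. The GC content and length correction, chosen after seeing the data, gave 2212 DEGs. Few fragments lie behind genes near the filter.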
